A study of Mus musculus with 8 samples.

Results

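Pcp4, the calmodulin genes Calm2 and Calm3, and the calmodulin-dependent protein kinase II (CaM kinase II) genes Camk2a, Camk2b, Camk2d and Camk2g were compared between cardiac Purkinje cells and ventricular myocytes. These 7 genes, of 18195 named on the array, were represented by all 23 probe sets, of 45101, that the annotation assigned to one of them and to no other gene. A probe set is the group of oligonucleotides that together measure a transcript. Pcp4 and Camk2b had 1 probe set each, Calm2 and Camk2g had 2 each, Calm3 had 4, Camk2a had 6 and Camk2d had 7. The members were chosen by name and not by a measured value, but with earlier results of these arrays known.

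Cardiac Purkinje cells are the myocytes of the distal conduction system, and ventricular myocytes are the working muscle. Each of 4 hearts of adult male mice gave 1 array of each cell type, so that there were 4 Purkinje and 4 ventricular arrays. All animals, for both cell types, carried Cntn2-EGFP and a-MHC-Cre together with floxed-tdTomato. Their background was a mix of CD1, C57/B6 and 129S1, and the labels name no treatment. The hearts were perfused on a Langendorff apparatus and digested with enzymes, and the cells were sorted by fluorescence. The sort rests on a reporter of Cntn2 and on a Cre driven by the a-MHC promoter, which is active in heart muscle cells, so a Purkinje cell here is one defined by these reporters. Each array was a pool of sorted cells, in which fewer cells with a transcript and less of it in each cell cannot be told apart.

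Calmodulin is the general calcium sensor of the cytoplasm: it binds calcium and then docks onto its target proteins. Pcp4, also called PEP-19, is a small protein with an IQ motif that binds calmodulin and speeds its exchange of calcium, and it was named for the Purkinje neurons of the cerebellum. CaM kinase II is a large ring of subunits that calcium-bound calmodulin switches on; in heart muscle it phosphorylates calcium channels, the ryanodine receptor and phospholamban. Calm2 and Calm3 encode an identical calmodulin protein, Camk2d encodes the main CaM kinase II subunit of the heart, Camk2g a further subunit of many tissues, and Camk2a and Camk2b the subunits best known from the brain.

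The start sites of Pcp4 and Camk2d are shown because one gene differed between the cell types and the other, the main cardiac kinase gene, did not pass the test. Both are the 250 bases before the annotated start in RefSeq on build GRCm38.p6, 5′ to 3′ on the gene's own strand, with every CpG dinucleotide in capitals. The Pcp4 stretch is chr16:96467356-96467605 on the plus strand and the Camk2d stretch is chr3:126596701-126596950 on the plus strand.
Pcp4: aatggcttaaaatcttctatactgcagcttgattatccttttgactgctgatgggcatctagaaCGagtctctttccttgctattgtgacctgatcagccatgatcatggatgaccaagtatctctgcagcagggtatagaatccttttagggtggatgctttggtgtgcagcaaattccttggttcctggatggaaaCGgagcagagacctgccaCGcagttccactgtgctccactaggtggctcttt
Camk2d: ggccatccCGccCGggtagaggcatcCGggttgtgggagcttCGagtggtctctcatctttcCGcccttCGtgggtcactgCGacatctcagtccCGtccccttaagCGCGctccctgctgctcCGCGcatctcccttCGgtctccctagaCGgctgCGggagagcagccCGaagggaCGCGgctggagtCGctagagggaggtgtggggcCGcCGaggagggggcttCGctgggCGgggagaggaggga

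The Pcp4 sequence held 3 CpGs and was 46.8% G or C, while the Camk2d sequence held 23 CpGs and was 68.4% G or C. The median over 32851 mouse promoters of the same length was 6 CpGs and 52.4%. Of these promoters 29.0% held fewer CpGs than Pcp4 and 86.7% held fewer than Camk2d. The 2 other members with an entry lay further in the same direction as Camk2d: Calm3 (chr7:16924033-16924282, minus strand) held 33 CpGs and Camk2b (chr11:6065749-6065998, minus strand) held 44. A set of 5 short motifs was searched on both strands: the TATA box TATAAA, the GC box GGGCGG, the T-box element AGGTGT, the E-box CANNTG and the Nkx2-5 element TNAAGTG, which occurred in 12.4%, 32.7%, 11.8%, 66.2% and 10.1% of all promoters. None of the 5 was found in the Pcp4 or Calm3 stretch, Camk2d had 3 GC boxes and 1 T-box element, and Camk2b had 3 GC boxes. The letters describe these windows only, and no factor binding was measured.

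Each array had been scaled by the authors to the same trimmed mean, 150.001, while the median signal of an array was 36.1 to 42.9 for Purkinje cells and 28.2 to 32.3 for ventricular myocytes. Both sorted populations carried the defining transcripts of heart muscle: the summed signal of 10 cardiac myocyte markers, among them Tnnt2 and Myl3, was 72701 to 77801 on Purkinje arrays and 73223 to 91882 on ventricular arrays. All 10 had a negative log2 difference. Ckm alone was lower by the limma test used below (-0.64, adjusted p = 0.0337), where 1.02% of all tested genes were. The summed signal of 9 conduction system markers, among them Gjc1 and Irx3, was 2275 to 4500 against 760 to 1221. By the test used below 6 of the 9 were higher, where 1.94% of all tested genes were, but 1 of the 6 is Cntn2, on whose reporter the cells were sorted. For markers of other cells the sums on Purkinje and ventricular arrays were as follows, with counts of genes higher by the same test. More genes passed with the heart as a block in that test, where 9.63% of all tested genes were higher. The counts were then 9 of 10 endothelial, 7 of 10 fibroblast, 8 of 9 smooth muscle and pericyte and 5 of 7 atrial genes. The sum of 10 endothelial genes, the brightest being Egfl7 and Cdh5, was 2517 to 6437 against 1198 to 3705, with 2 of 10 tested genes higher. That of 10 fibroblast genes, with Gsn and Dcn, was 4498 to 7770 against 2445 to 4960, with 2 of 10 higher. That of 10 smooth muscle and pericyte genes was 7661 to 14123 against 4810 to 8358, with 3 of 9 higher; of its brightest genes Rgs5 had a log2 difference of 1.08 and Abcc9 one of -0.055. The sum of 8 atrial genes was 12168 to 20036 against 5071 to 6027, with 2 of 7 higher; Nppa had a log2 difference of 3.00 and Clu one of -0.011. Immune markers, with Lyz2 and C1qb, summed to 584 to 1681 against 491 to 825, with 0 of 7 higher in limma and 3 with the heart as a block. The 11 neuron and Schwann cell markers summed to 313 to 647 against 185 to 278, with 1 of 3 tested genes higher, Dbh. The probe sets of Mbp disagreed. The representing one had a log2 difference of -0.10, and a second, 1425264_s_at, one of 1.22 (adjusted p = 0.125 in the limma fit of all probe sets). Of the 11, Rbfox3, Snap25, Tubb3, Th, Elavl4, Prph, Nefl and S100b lay under the limit for testing. Hearts 1 and 2 stood apart from hearts 3 and 4 in a measure of RNA and amplification quality, the Gapdh control signal at the 3′ end over that at the 5′ end. It was 1.20 to 1.28 on the 4 arrays of the former and 1.51 to 1.72 on those of the latter, and within each heart the Purkinje array had the higher value.

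Genes were tested with limma on log2 signals, with p-values adjusted by Benjamini and Hochberg over 12320 genes and called at 0.05; each gene was represented by its probe set of highest mean signal. Pcp4 was higher in Purkinje cells and was the single member of the 7 called, where 2.96% of all tested genes were called, 1.94% higher and 1.02% lower. None of the other 6 genes passed, with adjusted p-values of 0.706 to 0.938, and 0.555 at the lowest with the heart as a block, where 17.1% of all tested genes were called.

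On the ventricular arrays of hearts 1 to 4 the Pcp4 signal was 15.4, 26.0, 44.5 and 36.1. On the Purkinje arrays of the same hearts it was 592, 1469, 3278 and 3565. The groups lay far apart, the lowest Purkinje array standing above the highest ventricular one by more than the whole ventricular range; 6.25% of all tested genes were higher in Purkinje cells with no overlap. The means were 2226 ± 1431 and 30.5 ± 12.6 (SD, n = 4 each). The log2 difference was 5.98 ± 0.52 (SE, 95% interval 4.83 to 7.13, adjusted p = 0.000952), a 63.0-fold difference of geometric means with an interval of 28.4 to 140-fold. It ranked as the second of the 12320 genes by size.

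Within hearts 1 to 4 the log2 difference of Pcp4 was 5.26, 5.82, 6.20 and 6.63. Each heart therefore showed the increase, and hearts 3 and 4 showed more of it than hearts 1 and 2, on the same side as the split in the Gapdh ratio. Pcp4 was also lower on both arrays of heart 1 than on any other array of its cell type. With the heart as a block the interval narrowed to 5.53 to 6.43 on the log2 scale. The call held when any single array or heart was left out, with log2 differences of 5.65 to 6.51 and a highest adjusted p of 0.0445, without heart 2.

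The size of the Pcp4 ratio depends on the low ventricular signals. The array of ventricular replicate 1, at 15.4, was below the signal of 19.9 that a mean had to exceed to be tested, so the dim side is poorly measured. With 16 added to every signal before log2 the log2 difference was 5.32, and with 64 added it was 4.32; both passed the test. The authors' deposited table gives a ratio of 73.0 for the arithmetic means of this probe set and an unadjusted p of 0.0535, which was computed on linear signals, where the Purkinje arrays spread from 592 to 3565.

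Marker sums over the Purkinje arrays of hearts 1 to 4 are given beside Pcp4. The conduction sum was 2275, 3675, 4492 and 4500, in the same order as Pcp4, but it holds Cntn2 and Gja5, whose pattern was among the most like that of Pcp4. Without these 2 genes it was 1787, 2170, 1960 and 2290, which is not that order. The endothelial sum was 6437, 6149, 3984 and 2517, in the opposite order. The smooth muscle and pericyte sum, 13148, 14123, 8778 and 7661, was also lower in hearts 3 and 4, while the neuron and Schwann cell sum was 313, 534, 512 and 647, or 214, 248, 222 and 220 without Dbh. The part of these cell types in the Pcp4 difference was not tested.

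**Figure D1:**
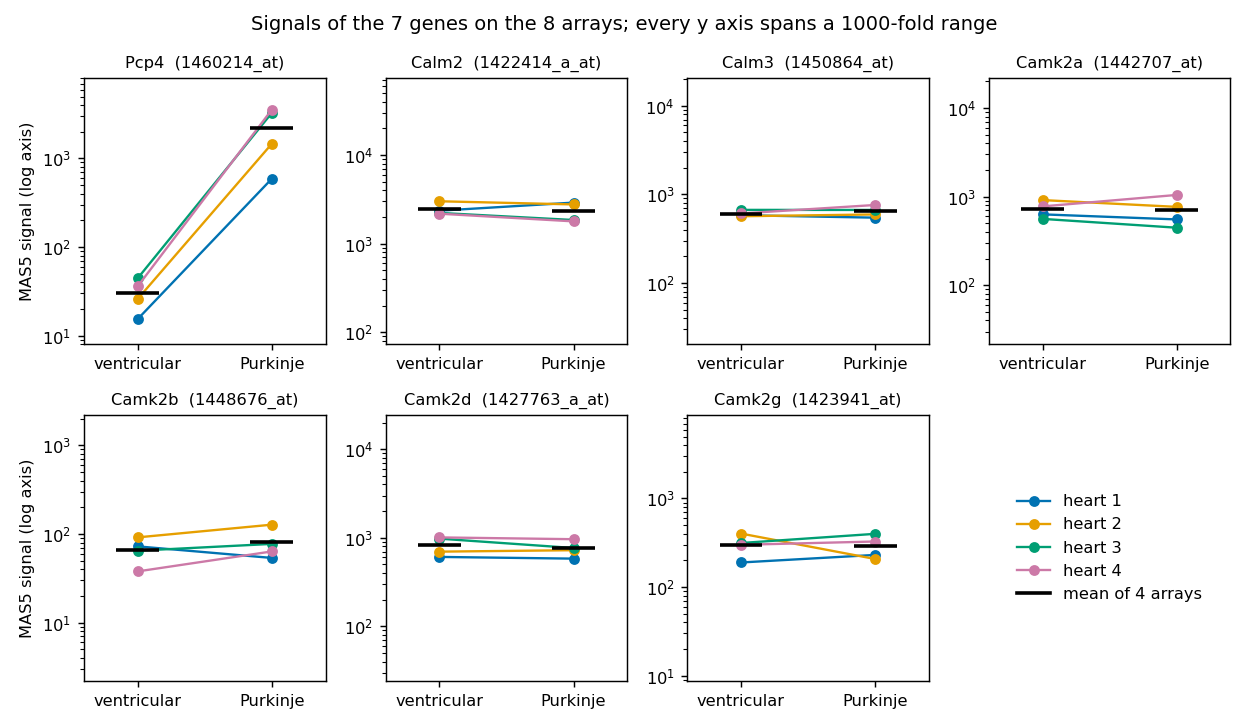
MAS5 signal (y axis, log scale, the same 1000-fold span in each panel) of the probe set that represents each of the 7 genes on the ventricular and Purkinje arrays (x axis). Points are single arrays, lines join the arrays of one heart and black bars are arithmetic means of 4 arrays; the Pcp4 lines climb from 15.4 to 44.5 up to 592 to 3565, and those of the other 6 genes cross or run level.

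The calmodulin genes did not pass the test. For Calm2 the signal of probe set 1422414_a_at in hearts 1 to 4 was 2354, 3008, 2223 and 2178 on ventricular arrays. It was 2906, 2771, 1848 and 1784 on Purkinje arrays. The groups overlapped, with means of 2441 ± 385 and 2327 ± 593 (SD, n = 4), and the difference was positive in heart 1 and negative in hearts 2, 3 and 4. The log2 difference was -0.092 ± 0.18 (SE, 95% interval -0.49 to 0.31, adjusted p = 0.811). The second Calm2 probe set, 1423807_a_at, gave -0.14 ± 0.17, and its within-heart differences of 0.21, -0.23, -0.17 and -0.35 had the same sign in each heart as those of the first.

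For Calm3 the signal of probe set 1450864_at was 582, 567, 669 and 609 on the ventricular arrays of hearts 1 to 4. On the Purkinje arrays it was 546, 594, 667 and 759. The groups overlapped: heart 3 gave nearly equal signals, and the largest within-heart difference was 0.32 on the log2 scale, in heart 4. The log2 difference was 0.073 ± 0.15 (SE, 95% interval -0.25 to 0.39, adjusted p = 0.816). Probe set 1426710_at averaged 179 on ventricular and 198 on Purkinje arrays, and 1438826_x_at, whose suffix marks oligonucleotides that can match other sequences too, 30.2 and 26.4. The fourth, 1438825_at, had signals of 0.6 to 8.7 and was not tested. As ratios of Purkinje over ventricular signal, the intervals of the representing probe sets were 0.842 to 1.31 for Calm3 and 0.712 to 1.24 for Calm2.

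Camk2d, the main cardiac subunit gene, was measured by 7 probe sets, all of them tested and none called. The representing probe set, 1427763_a_at, read 608, 698, 978 and 1010.0 on the ventricular arrays of hearts 1 to 4. On the Purkinje arrays it read 582, 724, 767 and 964. Hearts 1 and 2 were below hearts 3 and 4 in both cell types. The means of the hearts spanned 0.73 on the log2 scale, against a difference between cell types of -0.11 ± 0.21 (SE, 95% interval -0.56 to 0.34, adjusted p = 0.807).

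The 7 Camk2d probe sets gave log2 differences from -0.33 to 0.56, 4 of them above 0 and 3 below. Probe set 1422659_at was lower in Purkinje cells in 4 of 4 hearts, at 612, 903, 883 and 912 on ventricular and 600.0, 685, 755 and 864 on Purkinje arrays, with overlapping groups (log2 difference -0.18 ± 0.17, adjusted p = 0.583 in the fit of all probe sets). Probe set 1459457_at was higher in 4 of 4 hearts, at 104, 120, 180 and 304 on ventricular and 109, 129, 241 and 394 on Purkinje arrays (0.24 ± 0.43, adjusted p = 0.787). These 2 probe sets of one gene thus differed in opposite directions in every heart, neither past the test. Of all tested probe sets 36.6% had one direction in 4 of 4 hearts. The remaining dim probe sets 1456844_at, 1444031_at, 1460630_at and 1439168_at had mean signals of 41.9 and 59.1, 22.4 and 34.9, 39.2 and 45.7, and 77.9 and 77.3 on ventricular and Purkinje arrays. The first of these had the lowest adjusted p of the kinase probe sets, 0.346. Splice forms of Camk2d were not told apart here.

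Camk2g was read by 1423941_at at 189, 402, 314 and 299.7 on the ventricular arrays of hearts 1 to 4 and at 231, 207, 399 and 327 on the Purkinje arrays. The within-heart log2 difference was -0.95 in heart 2 and 0.12 to 0.34 in the other 3 hearts, and the groups overlapped. The log2 difference was -0.050 ± 0.27 (SE, adjusted p = 0.938), and that of the second probe set, 1423942_a_at, was -0.36 ± 0.26 with means of 102 and 77.1 (adjusted p = 0.460).

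The subunit genes best known from the brain did not pass either. Camk2a, by 1442707_at, was at 630.0, 913, 560.1 and 775 on ventricular and at 552, 765, 445 and 1044 on Purkinje arrays (log2 difference -0.086 ± 0.26, adjusted p = 0.882), lower in hearts 1 to 3 and higher in heart 4. Of the 5 other Camk2a probe sets, 1452453_a_at averaged 431 on ventricular and 481 on Purkinje arrays, 1437125_at 216 and 187, and 1457311_at 137 and 150.3. The last pair, 1441734_at and 1443876_at, had signals of 0.7 to 6.8 and 0.8 to 38.5 and were not tested. Camk2b, by 1448676_at, was at 72.4, 91.5, 64.7 and 37.8 on ventricular and at 53.6, 127, 77.2 and 63.5 on Purkinje arrays. It was lower in heart 1 and higher in the other 3 hearts, with a log2 difference of 0.26 ± 0.34 (SE, 95% interval -0.49 to 1.02, adjusted p = 0.706), the widest interval of the 7 genes after Pcp4.

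Over all 20 tested probe sets of the 7 genes 1 was called, that of Pcp4, where 1.96% of the 27022 tested probe sets were called, 1.41% higher and 0.555% lower (14.1% with the heart as a block). The other 19 had log2 differences from -0.36 to 0.56 with a median of -0.050 and SEs of 0.15 to 0.45, and the lowest adjusted p was 0.346, or 0.310 with the heart as a block. None of the 19 reached an unadjusted p of 0.05 and none had groups without overlap, where 12.0% of all tested probe sets had none. In 18 of the 19 the means of the hearts differed by more than the cell types did, as in 78.3% of all tested probe sets. The 95% interval lay within a 2-fold change either way in 12 of the 19 (14 with the heart as a block), where it did so in 53.9% of all tested probe sets. For the 6 genes by their representing probe sets the intervals together spanned 1.57-fold lower, for Camk2a, to 2.02-fold higher, for Camk2b. With the heart as a block each of the 6 intervals was narrower. Together they then spanned -0.50, for Camk2g, to 0.85, for Camk2b, on the log2 scale. For each gene, differences inside its own interval in a fit cannot be told from none by that fit, with 4 arrays per group. In simulated data of this size, 49 of 100 genes given a 2-fold change passed the test, as did 84 of 100 given a 4-fold change.

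**Figure D2:**
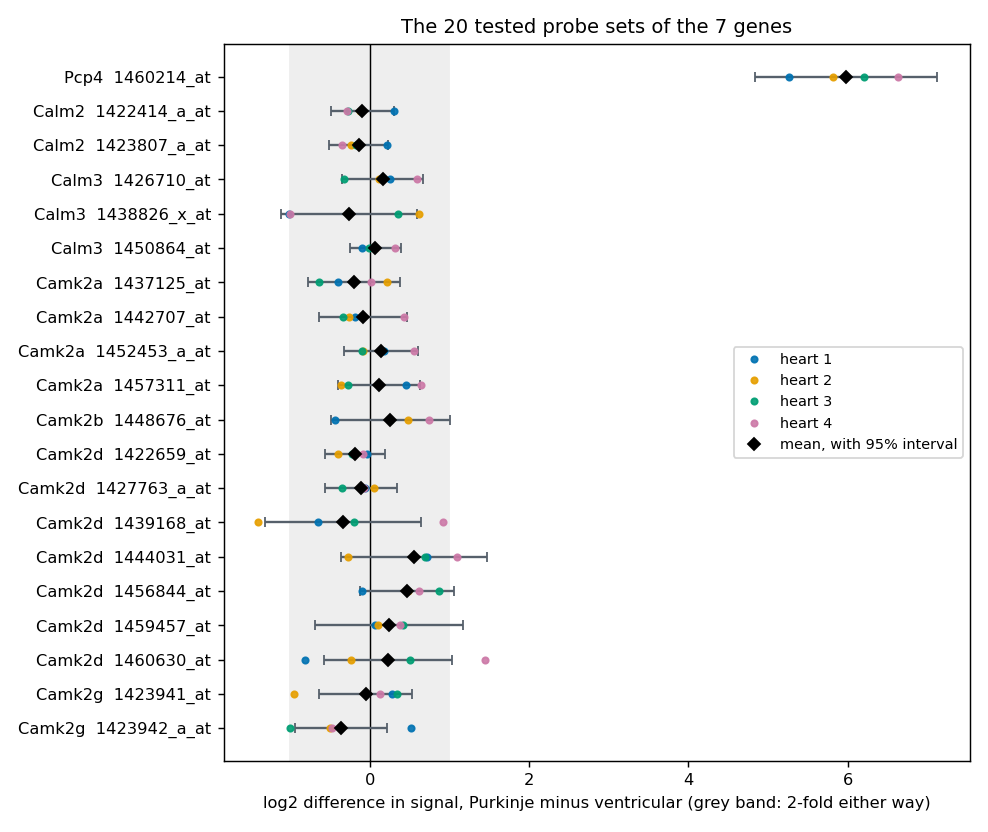
Log2 difference in signal, Purkinje minus ventricular (x axis), of the 20 tested probe sets (y axis), with the 4 hearts as coloured points, the mean as a diamond, its 95% interval from the limma fit as a bar and a grey band for a 2-fold change either way. Pcp4 stands at 5.98 with its 4 hearts between 5.26 and 6.63, and the other 19 means lie between -0.36 and 0.56.

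Scaling shifted the reference against which these small differences are read. The median log2 difference of all 12320 genes was 0.055 as deposited. It was -0.063 once the arrays were quantile normalized, a shift of -0.12, and -0.35 with each array centred on its median. That centring adds the same -0.40 to every gene's difference, so it leaves differences relative to the median as they were and is no further check of them. Relative to the median of all genes, Pcp4 was at 5.92 as deposited and 5.93 after quantile normalization. Calm2 was at -0.15 and 0.13, Camk2d at -0.16 and 0.063, and Camk2a at -0.14 and 0.058, so these 3 changed sign. Calm3 was at 0.018 and 0.21, Camk2b at 0.21 and 0.039, and Camk2g at -0.11 and -0.024. None of the 6 genes passed under any of these scalings.

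The genes around calmodulin and CaM kinase II were read from 6 lists chosen with earlier results of these data known. Of 95 genes measured 85 were tested: 3 were higher in Purkinje cells (Ppp1r1a, Dapk2 and Camk2n1), 1 was lower (Cacna1c) and 81 did not pass. Of all tested genes 1.94% were called higher and 1.02% lower. With the heart as a block 11 of the 85 were higher and 11 lower, where 9.63% and 7.48% of all tested genes were called in that fit. Those 22 calls were 26, 8, 10 and 11 when heart 1, 2, 3 or 4 was left out of it. Of all tested genes 19.6%, 6.59%, 7.18% and 8.99% were called in these 4 fits, against 17.1% with all hearts.

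Camk2n1 encodes an inhibitor protein of CaM kinase II. Its signal was 305, 169, 129 and 73.3 on the ventricular arrays of hearts 1 to 4 and 511, 534, 464 and 531 on the Purkinje arrays. The Purkinje arrays were even, and the ventricular ones spread from 73.3 to 305, the highest being that of heart 1, which also had the highest endothelial sum, 3705 against 1198 to 1654 on the other 3; the part of that in the result was not tested. The log2 difference was 1.78 ± 0.34 (SE, adjusted p = 0.0246), while a second and dimmer probe set, 1440455_at, gave 0.49 (adjusted p = 0.500). Ppp1r1a, an inhibitor of protein phosphatase 1, was at 29.1, 14.1, 5.1 and 15.7 on ventricular and 38.8, 99.4, 82.3 and 106.9 on Purkinje arrays (2.50 ± 0.53, adjusted p = 0.0344). Of its ventricular signals 3 of 4 were under the limit of 19.9, so it entered the test through its Purkinje arrays and the size of its difference is poorly measured. Among the 14 tested genes for inhibitors, phosphatases and anchors of CaM kinase II these 2 were higher and 12 did not pass, with a median log2 difference of -0.18 beside 0.055 for all genes. With the heart as a block Ppm1e and Cask were also higher, and Ppp1ca, Ppp2ca and Ank2 were lower.

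Dapk2, a calmodulin-dependent death-associated protein kinase, was at 41.9, 37.0, 37.9 and 32.6 on ventricular and at 62.6, 104, 247 and 178 on Purkinje arrays. Its Purkinje signals were higher in hearts 3 and 4, as those of Pcp4 were, and the groups did not overlap (1.80 ± 0.38, adjusted p = 0.0337). It was the 1 higher gene of the 14 other calmodulin-dependent kinases tested, whose median difference was 0.22; with the block Mylk, the smooth muscle myosin light chain kinase, and Phkg1, a phosphorylase kinase subunit, were higher as well. The smooth muscle and pericyte sums given above were also higher on the Purkinje arrays, and their part in the Mylk difference was not tested.

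Cacna1c, the pore subunit of the L-type calcium channel and a CaM kinase II substrate, was at 1166, 1697, 1356 and 1284 on ventricular and at 947, 877, 964 and 848 on Purkinje arrays. All 4 hearts were lower in Purkinje cells and the groups did not overlap (-0.59 ± 0.14, adjusted p = 0.0482); a second probe set gave -0.44 (adjusted p = 0.259). It was the 1 lower gene of 17 substrates tested, with a median of -0.15. With the block 5 of the 17 were lower, Cacna1c, Mybpc3, Kcnd2, Gja1 and Mef2c, where 7.48% of all tested genes were. The count of substrates called in either direction was 1 with the block and without heart 2, 3 or 4, and 7 without heart 1. Of all tested genes 6.59%, 7.18% and 8.99% were called without heart 2, 3 or 4, and 19.6% without heart 1.

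These 4 calls depended on which arrays were kept. Each was lost when ventricular replicate 2, 3 or 4 or Purkinje replicate 2, 3 or 4 was left out (adjusted p of 0.0534 to 0.125), or heart 2, 3 or 4 (0.108 to 0.242), and each held without ventricular replicate 1 (0.00327 to 0.0273) or heart 1 (0.00473 to 0.0312). Without Purkinje replicate 1 Cacna1c alone of the 4 was lost (0.0562). With the heart as a block all 4 passed, at adjusted p-values of 0.00123 to 0.00712, but with the block and without heart 2 Ppp1r1a (0.0561) and Cacna1c (0.0589) did not.

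The closest relatives of Pcp4 did not pass. Pcp4l1, which encodes the similar protein Pcp4-like 1, was at 1547, 1905, 1512 and 1548 on ventricular and 1770, 2148, 2482 and 2222 on Purkinje arrays. It was higher in 4 of 4 hearts by a small amount, 0.40 ± 0.13 on the log2 scale (adjusted p = 0.113, and 0.0289 with the heart as a block). Nrgn, which encodes the IQ-motif protein neurogranin of neurons, averaged 17.0 ± 9.50 on ventricular and 32.2 ± 3.68 on Purkinje arrays (1.16 ± 0.52, adjusted p = 0.221). Its ventricular mean was under the limit for testing, 19.9, so the size of its difference is poorly measured. Gap43, the third member of that list, lay under that limit.

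Calcineurin, the calmodulin-dependent phosphatase, and its NFAT targets had no call among 14 tested genes in limma (median -0.097), and 1 with the block, Nfatc2, which was lower. The largest differences were those of Akap5, an anchoring protein, 0.85 ± 0.39 (adjusted p = 0.229), and Nfatc4, 0.80 ± 0.43 (adjusted p = 0.304). Of 24 other calmodulin-regulated genes none passed (median 0.22). Cald1, which encodes the actin-binding caldesmon of smooth muscle, gave 1.28 ± 0.46 (adjusted p = 0.133, and 0.000964 with the block). Its signals on the Purkinje arrays, 778, 523, 233 and 306, were higher in hearts 1 and 2, like the smooth muscle and pericyte sums, whose part was not tested. Marcks, a membrane protein that binds calmodulin, gave 1.24 ± 0.66 (adjusted p = 0.303, and 0.0119 with the block). Its signals were 751, 321, 133 and 158 on ventricular and 1174, 1362, 576 and 170 on Purkinje arrays. The endothelial sums were 3705, 1654, 1198 and 1341 and 6437, 6149, 3984 and 2517 on the same arrays, and their part in the difference was not tested. With the block Iqgap1 was also higher, and Rit1 and Strn3 were lower.

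**Figure D3:**
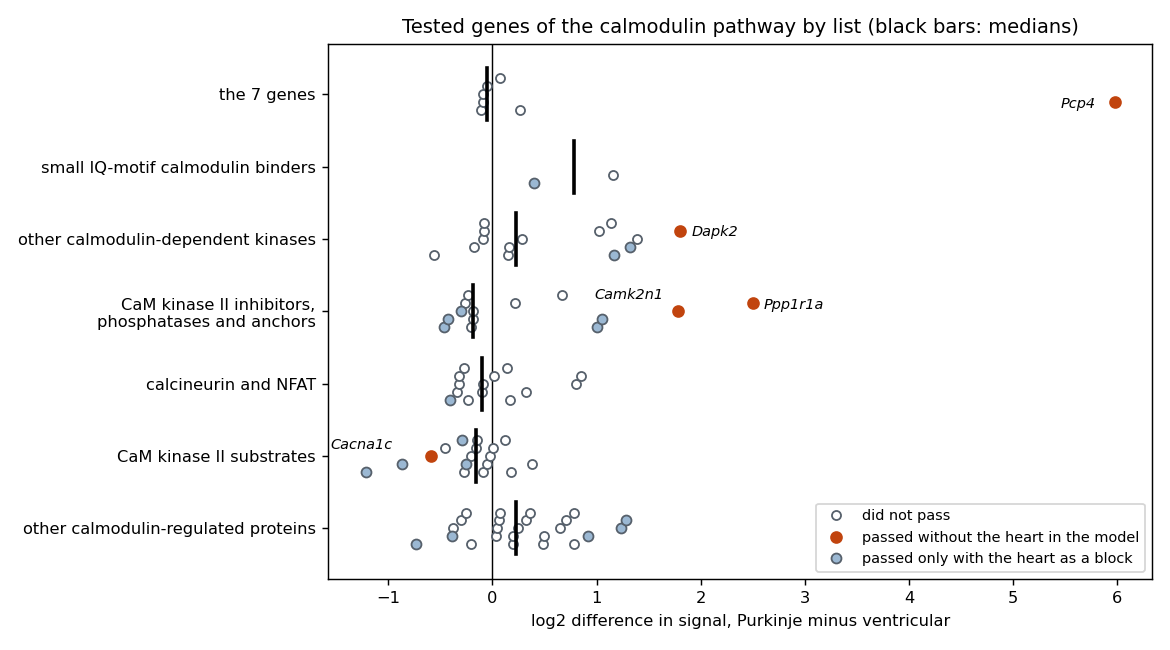
Log2 difference in signal, Purkinje minus ventricular (x axis), of the tested genes of the 7 members and of the 6 lists (rows), each point a gene and each black bar a list's median. Filled orange points passed without the heart in the model, blue points passed only with the heart as a block and open points did not pass; Pcp4 at 5.98 stands far to the right of Ppp1r1a at 2.50, Dapk2 at 1.80 and Camk2n1 at 1.78.

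The genes whose pattern was most like that of Pcp4 were sought among all tested genes by the root mean square difference of log2 signals, each centred on its mean over the 8 arrays. The nearest were Cntn2 (0.55), Drd2 (0.56), Slit2 (0.88), Fgf12 (0.95) and Gja5 (1.05), against a median of 3.09 over the other genes; the gene sixth in order was also at 1.05. Cntn2 encodes a neural adhesion protein and is the gene whose reporter the cells were sorted on, so its place is no independent result. Its signal was 2.9, 13.3, 11.7 and 24.0 on ventricular and 222, 800.1, 1256 and 1185 on Purkinje arrays. Drd2, a dopamine receptor gene, was at 9.5, 8.7, 19.2 and 12.8 against 120, 315, 1761 and 1830, with all 4 ventricular signals under the limit of 19.9, as were 3 of 4 for Cntn2. Both genes entered the test through their Purkinje arrays, and no exact ratio is given for them.

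Slit2, which encodes a guidance protein, Fgf12, an intracellular relative of fibroblast growth factors that binds sodium channels, and Gja5, which encodes connexin 40, shared the low Purkinje signal of heart 1 with Pcp4. Their signals on the Purkinje array of heart 1 were 148, 129 and 266, and on those of hearts 2 to 4 they were 493, 1291 and 1074 for Slit2, 408, 522 and 825 for Fgf12, and 705, 1276 and 1025 for Gja5. Slit2 was at 16.1, 43.8, 18.6 and 17.9 on the ventricular arrays of hearts 1 to 4. Fgf12 was at 10.3, 23.7, 41.4 and 9.2 there, and Gja5 at 43.4, 43.6, 30.4 and 21.3. Of these signals 3 of 4 for Slit2 and 2 of 4 for Fgf12 were under the limit for testing. The sizes of the Slit2 and Fgf12 differences are therefore poorly measured. Likeness here covers 8 arrays from 4 hearts. It is set both by the difference between cell types and by the order of the Purkinje arrays. With 16 added before log2 the same 5 genes were nearest.

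**Figure D4:**
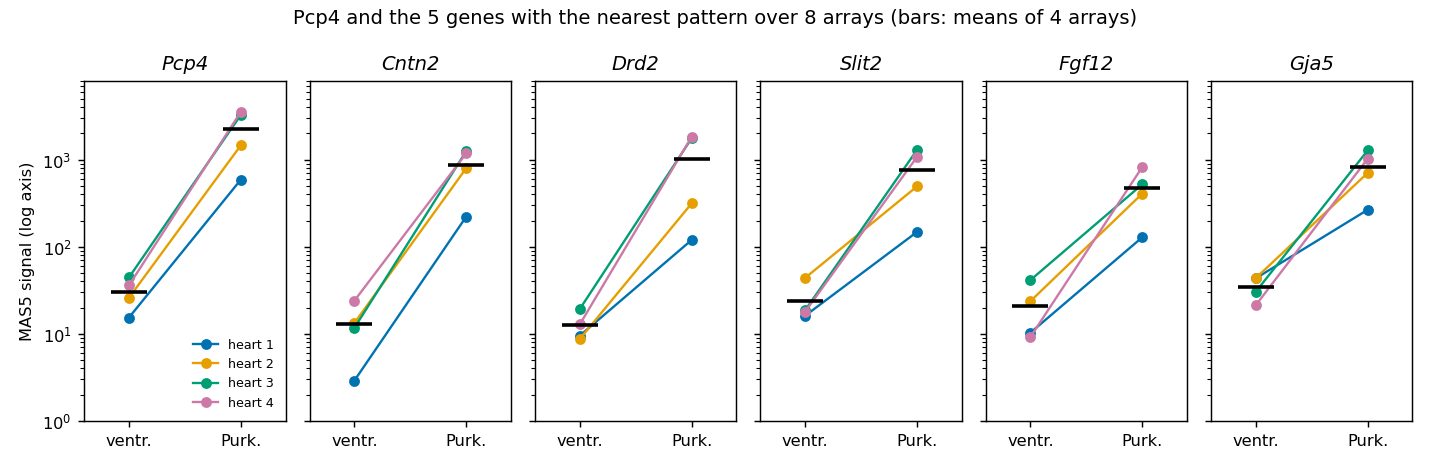
MAS5 signal (y axis, log scale) of Pcp4 and the 5 genes with the nearest pattern on ventricular and Purkinje arrays (x axis), with lines joining the arrays of a heart and black bars for arithmetic means of 4 arrays. The Purkinje array of heart 1 is the lowest of the 4 in every panel, from 120 for Drd2 to 592 for Pcp4; levels of different probe sets are not compared.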

How the data were processed

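RNA of the sorted cells was isolated with Arcturus PicoPure and turned into cDNA with the Nugen Ovation Pico WTA System v2 before hybridization to Affymetrix arrays, per the labels. The authors deposited linear intensity signals from the MAS5 algorithm, of unstated version, per the submitters' processing notes. A ratio of group means and a p-value without adjustment, 1 of each per probe set, also come from the authors' deposited table. Signals of both deposited tables were identical. Precision is limited throughout by having 4 arrays per group.

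Probe sets were named from the deposited annotation (10 by symbol, 22 by description) and the platform table (17), which together gave the 23; Calm2 and Calm3 were named from the deposited annotation alone, and 1 Camk2a probe set from the platform table alone. Other genes were named through the platform table, which gave 34958 probe sets a single symbol, 932 several and 9211 no symbol; 64 control probe sets were left out. Signals were taken to log2 without further normalization, after 10 signals of 0 were set to 0.1. Features whose mean log2 signal was above the 40th percentile (4.31, a signal of 19.9) were tested in R 4.3.3 with limma 3.58.1, using eBayes with its variance trend on. The test was two-sided, and p-values were adjusted by Benjamini-Hochberg over 12320 genes, or over 27022 probe sets where a single probe set is given. Values of the gene fit stand beside a gene's representing probe set.

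The arrays were paired by heart because the series names 4 hearts. The departures of same-numbered arrays from their group means correlated at 0.38, 0.23, 0.27 and 0.27. For the Purkinje arrays of hearts 1 to 4 the highest correlation with a ventricular array of another number was 0.090, 0.20, 0.21 and 0.225. Heart 1 alone stood well clear of these, so the correlations say little about the pairing of hearts 2, 3 and 4. Values with the heart as a block stand where they change a call or a count, and for some intervals of the members. The members and lists were chosen with earlier results of these data known. The text names the 7 members, of each pathway list up to 4 called genes or else up to 2 with the largest difference, the 5 genes most like Pcp4, and the 2 brightest genes of each marker list; others are named where a count of calls is given, after their values were seen. On simulated data for the gene comparison, 5 unchanged genes were called besides the recovered ones. Alternatives were the heart block, other scalings, 16 or 64 added before log2, other filters, no variance trend, the mean over probe sets, the authors' p-value, and leaving out each array or heart; the block combined with 16 added or with a heart left out was added after seeing the data. Promoters came from the RefSeq table, which held 4 of the 7 members, and protein sequences were not used here.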

Additional observations from a re-analysis of the deposited data

Results flagged for a closer look

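Of 46 groups of 4 arrays examined, those of each of the 23 probe sets in each cell type, 2 had an array far from the other 3, where chance flags about 1 in 20. For Camk2d probe set 1422659_at the array of ventricular replicate 1 was the lowest, at 612 against 883 for the nearest other, a gap of 0.918 of the group's range on the log2 scale. For Camk2d probe set 1456844_at the array of ventricular replicate 3 was the lowest, at 37.6 against 42.9, a gap of 0.877 of the range.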

How the results depend on the processing

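Pcp4 kept its direction and its call under every alternative run except the authors' p-value, whose adjusted value was 0.240 (log2 ratio of arithmetic means 6.19) and which called 0 of the 7 genes and 0 of all genes (2617 at an unadjusted p under 0.05). With the heart as a replicate block the Pcp4 difference was 5.98 (adjusted p = 2.12e-08), and the block changed no call of another member. No alternative gave any of the other 6 genes a call. Signals near the limit for testing are poorly measured, which limits the size of the Pcp4 ratio.

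The calls in the 6 lists, 4 as reported, were 22 with the replicate block (also 22 with 16 added as well), 1 after quantile normalization, 27 with median centring (3 higher and 24 lower), 0 without the variance trend and 0 by the authors' p-value, and from 0 to 7 with an array or heart left out. With the block and without replicate 1, 2, 3 or 4 they were 26, 8, 10 and 11, where 19.6%, 6.59%, 7.18% and 8.99% of all tested genes were called. The cause was not tested. Over all genes 365 were called (65.5% of them higher), 2108 with the block (56.3% higher), 160 after quantile normalization (75.0% higher), 2603 with median centring (8.53% higher), 126 without the trend (92.9% higher), and 6 to 957 with an array or heart left out. Over all probe sets 530 were called, 3818 with the block, 217 and 4160 under the same scalings, 182 without the trend, and 12 to 1469 with an array or heart left out.

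Differences that did not pass changed sign as follows. Median centring adds the same -0.40 to every difference, so small positive ones turn by construction: Calm3 was at -0.33, Camk2b -0.14, Calm3 1426710_at -0.24, Camk2a 1452453_a_at -0.26, Camk2a 1457311_at -0.29, Camk2d 1459457_at -0.16, Camk2d 1460630_at -0.18 and, outside the members, Pcp4l1 -0.0028. After quantile normalization Calm2 was at 0.072, Camk2b -0.023, Camk2d 0.00024, Calm2 1423807_a_at 0.0090, Camk2a 1457311_at -0.049 and Camk2d 1460630_at -0.14. Averaging the probe sets of a gene, Calm3 was at -0.28 and Camk2d at 0.13. The Calm3 average includes the untested probe set 1438825_at, with signals of 0.6 to 8.7, so it is poorly measured. With the block, Camk2g was at 0.25 and Camk2d 1439168_at at 0.029 without replicate 2, and Calm3 at -0.0092, Camk2a 1457311_at at -0.059 and Camk2d 1460630_at at -0.18 without replicate 4. With each array or heart left out in turn, Calm2 ranged from -0.22 to 0.024, Calm3 from -0.012 to 0.15, Camk2a from -0.30 to 0.11, Camk2d from -0.24 to 0.013, Camk2g from -0.26 to 0.25, Camk2a 1452453_a_at from -0.013 to 0.26, Camk2a 1457311_at from -0.064 to 0.27, Camk2d 1439168_at from -0.81 to 0.047, Camk2d 1459457_at from -0.10 to 0.55 and Camk2d 1460630_at from -0.18 to 0.57.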
